A study of Mus musculus with 10 samples.

Results

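The suppressor of cytokine signalling (SOCS) family of the mouse has 8 genes, Socs1 to Socs7 and Cish, and all 8 were found by gene identifier among the 17737 genes of the count table. All 8 had enough counts to be tested, among 13798 genes in all. The family was measured in subcutaneous tumors of the mouse melanoma line B16-F10, taken from C57BL/6 mice on day 11. The line had been made to overexpress IL-18, in its wild-type form in 1 group (WT, tumors 2 to 6) and as the aspartate-to-alanine variant D69A in the other (D69A, tumors 1 to 5), so each group held 5 tumors and both groups overexpressed an IL-18. The labels give neither the promoter of the introduced gene nor whether a line was 1 clone, and no tumor without overexpression was analysed here. Whether each tumor came from its own mouse is not stated either, so the p-values below speak of the spread among these 10 tumors, part of which may be technical.

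SOCS proteins are the feedback brakes of cytokine receptors that signal through Janus kinases (JAKs) and STAT transcription factors. Each carries an SH2 domain, which binds phosphorylated tyrosines, and a C-terminal SOCS box, which recruits elongins B and C and cullin-5 to tag bound proteins with ubiquitin. SOCS1, SOCS3, SOCS2 and the Cish product CIS are classically induced by the STATs they restrain, whereas SOCS4 to SOCS7 are less tied to cytokine induction and are studied mostly with growth factor and insulin receptors. IL-18 itself signals through MyD88 rather than through JAKs, but it drives natural killer (NK) and T cells to make interferon-gamma, whose receptor does use JAKs.

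Total counts lay between 25904345 and 37578722 per tumor, so 3 counts came to at most 0.115 CPM (counts scaled to a common library size with TMM factors), and SOCS genes had between 58 and 3289 counts in each tumor. Melanocyte markers were abundant in every tumor, as the labelled cell type implies, with a summed level of 16790 to 20810 CPM in WT and 24700 to 31610 CPM in D69A tumors. The same tumors held host cells. The summed level of 10 pan-leukocyte genes lay between 649.3 and 1700 CPM in WT, and between 248.7 and 491.4 CPM in D69A tumors, and all 10 fell. That of 8 fibroblast genes lay between 2208 and 5802 CPM in WT, and between 373.8 and 1340 CPM in D69A tumors, with 7 of 8 lower. Of the markers tested, 9 of 9 for T cells, 8 of 8 for NK cells, 8 of 8 for dendritic cells and 9 of 10 for macrophages were lower as well. In such bulk tissue, fewer cells of a type and less RNA per cell cannot be told apart. Skeletal muscle markers were highest in WT tumor 4 (1420 CPM), WT tumor 3 (951.2 CPM) and D69A tumor 1 (498.8 CPM). No member of that list passed the test, as they varied widely among tumors. Their log2 fold changes were nonetheless all negative, from -2.31 to -1.50 with a median of -1.97.

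The design sets the 2 forms of IL-18 against each other, and the question here was which of the feedback inhibitors followed. The family split. Socs1, Cish, Socs2 and Socs3 fell in D69A tumors, Socs5 and Socs6 rose, and Socs4 and Socs7 did not pass the threshold. The decreases ran from 1.3-fold for Socs3 to 4.78-fold for Socs1, and the increases were 1.22-fold for Socs5 and 1.41-fold for Socs6. A gene passed when its Benjamini-Hochberg adjusted p from the quasi-likelihood test of edgeR, taken over all genes tested, was under 0.05. In this comparison 43.5% of all genes tested passed, 24.7% lower and 18.8% higher, so 4 lower and 2 higher of 8 stand against a background in which many genes moved. The median log2 fold change of the 8 genes was -0.17, against 0.00 over all genes tested. Leukocyte, T cell and NK cell genes fell along with Socs1, Cish, Socs2 and Socs3, and ratios within each tumor are given after the levels.

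**Figure D1:**
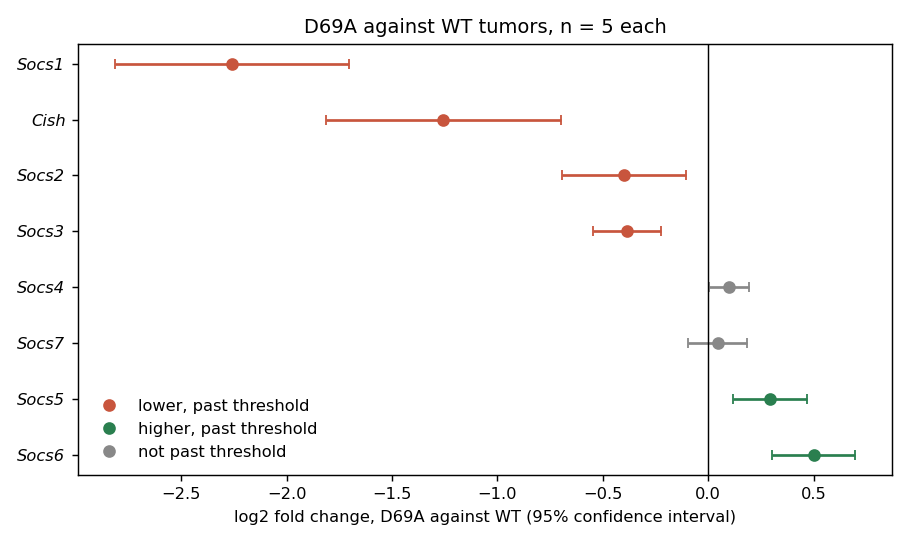
Log2 fold change of each SOCS gene, D69A against WT tumors (n = 5 each), on the horizontal axis, with bars for the 95% confidence interval of edgeR's quasi-likelihood fit and colors for the call. Socs1 lies farthest from 0 at -2.26 and Socs6 is the highest at 0.50.

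Socs1 had the largest change of the family. It encodes the inhibitor that binds JAK1, JAK2 and TYK2 through a kinase inhibitory region and is the main brake on interferon-gamma signalling. The gene (ENSMUSG00000038037, chromosome 16, 10782240 to 10785536 in mm10, minus strand) stood at 8.09, 14.7, 12.6, 10.5 and 9.75 CPM in WT tumors 2 to 6. In D69A tumors 1 to 5 it stood at 3.88, 2.12, 1.74, 2.07 and 1.79 CPM. The groups did not overlap, as for 17.4% of all genes tested (all WT tumors above), and D69A tumor 1 was the highest of its group. The WT mean was 11.1 ± 2.57 CPM and the D69A mean 2.32 ± 0.886 CPM (SD, n = 5 each), with a log2 fold change of -2.26 (edgeR adjusted p = 0.000422, SE 0.25). Only 5.73% of all genes tested had a lower log2 fold change. D69A tumor 1 was also highest of its group in the summed pan-leukocyte genes (491.4 CPM, against 248.7 to 295.2 CPM in the others). Without it the log2 fold change of Socs1 was -2.51.

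The sequence upstream of Socs1 is shown because it holds 2 matches to an interferon response type motif, which no other window of the family held. RefSeq promoter windows of 300 bases (250 before and 50 after the annotated start, build GRCm38.p6) matched 4 of the 8 genes, namely Socs1, Socs3, Socs4 and Cish. They were searched on both strands for a double GAAA motif (GAAA, any 2 bases, GAAA), the core of an interferon-stimulated response element. They were also searched for TTCNNNGAA, the core of a gamma-activated site to which most STATs bind, and for the same motif with 4 bases in its middle, the spacing preferred by STAT6, both of which read the same on either strand. Below are the 250 bases before the start of Socs1, chr16:10785537-10785786 on the minus strand, with 2 overlapping matches to the double GAAA motif in capitals.
Socs1: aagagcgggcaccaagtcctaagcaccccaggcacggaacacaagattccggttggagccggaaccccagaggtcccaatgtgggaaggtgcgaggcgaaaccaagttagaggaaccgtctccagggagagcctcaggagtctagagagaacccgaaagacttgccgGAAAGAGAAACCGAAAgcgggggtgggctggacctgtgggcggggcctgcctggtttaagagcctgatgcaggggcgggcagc
The matches begin 83 and 77 bases before the start. Of all 32851 windows in the table, 3.44% hold at least 1 double GAAA motif on either strand, 8.3% TTCNNNGAA and 6.95% its longer form. The share of windows with 2 matches was not counted. No TTCNNNGAA lies in the Socs1 window, and none of the 3 motifs lies in that of Socs4. A match describes letters, not a bound site.

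Cish and Socs2 encode the inhibitors most tied to STAT5, the STAT downstream of IL-2, growth hormone and prolactin receptors. CIS also restrains IL-2 and IL-15 signalling in T and NK cells, and SOCS2 is the main brake on growth hormone signalling. Cish (ENSMUSG00000032578, chromosome 9, 107296026 to 107302784, plus strand) stood at 8.55, 13.2, 11.8, 11.6 and 5.70 CPM in WT tumors 2 to 6 and at 6.12, 2.92, 3.78, 4.58 and 3.94 CPM in D69A tumors 1 to 5. The groups overlapped through WT tumor 6 and D69A tumor 1. The means were 10.2 ± 3.04 and 4.27 ± 1.19 CPM (SD, n = 5 each), a 2.39-fold decrease (log2 fold change -1.26 with an SE of 0.25, edgeR adjusted p = 0.00268). Of its exon sequence, 11.5% lies opposite exons of Gm17040 and Gm17041, and whether strand was used in counting is not given in the sources used here.

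The start of Cish is shown because 2 TTCNNNGAA matches (capitals) lie there side by side, within the first exon of a longer annotated transcript. The 30 bases are chr9:107296654-107296683 on the plus strand.
Cish: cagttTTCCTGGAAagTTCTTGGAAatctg
The matches begin at bases 1 and 12 counted from the RefSeq start. At least 1 match to this motif was present in 8.3% of all windows, and windows with 2 matches were not counted separately.

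Socs2 (ENSMUSG00000020027, chromosome 10, 95385362 to 95417180, minus strand) had a smaller change, whose call lay near the threshold. It stood at 18.8, 24.2, 22.1, 26.7 and 15.4 CPM in WT tumors 2 to 6 and at 16.5, 16.5, 16.9, 14.8 and 16.6 CPM in D69A tumors 1 to 5. WT tumor 6 lay among the D69A tumors, and the D69A tumors lay close together. The log2 fold change was -0.40 (edgeR adjusted p = 0.0324, SE 0.13). Of 10 fits with 1 tumor left out, 8 lost the call, those without any 1 of D69A tumors 1 to 5 and WT tumors 3 to 5, and the edgeR adjusted p reached 0.0905 when WT tumor 5 was absent (log2 fold change -0.27). In the 7 tumors left without the 3 highest in muscle genes it was -0.325, and the call was also lost (edgeR adjusted p = 0.197).

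Socs3 encodes the inhibitor that binds gp130, the shared receptor of IL-6, LIF and oncostatin M, and shuts off JAK1, JAK2 and TYK2 there. It is classically induced by STAT3. The gene (ENSMUSG00000053113, chromosome 11, 117966079 to 117970047, minus strand) stood at 41.4, 55.3, 49.4, 52.2 and 46.5 CPM in WT tumors 2 to 6 and at 37.6, 36.8, 36.8, 37.7 and 38.8 CPM in D69A tumors 1 to 5. The groups did not overlap, as for 17.4% of all genes tested (all WT tumors above). The D69A values spanned a far narrower range than the WT values. The means were 49.0 ± 5.33 and 37.5 ± 0.806 CPM (SD, n = 5 each), with a log2 fold change of -0.38 (edgeR adjusted p = 0.00205, SE 0.07). Its window was set on a RefSeq start that lies inside the annotated span of the gene given above. The part shown, chr11:117969452-117969616 on the minus strand, precedes that RefSeq start but lies within this span. It holds 1 TTCNNNGAA match (capitals), which begins 154 bases before the RefSeq start.
Socs3: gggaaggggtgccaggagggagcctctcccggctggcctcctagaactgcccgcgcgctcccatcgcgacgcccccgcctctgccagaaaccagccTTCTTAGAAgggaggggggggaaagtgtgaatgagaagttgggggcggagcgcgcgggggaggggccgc
The same motif background of 8.3% applies. The double GAAA motif was found neither in the whole Socs3 window nor in that of Cish.

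Socs6 and Socs5 were higher in D69A tumors. SOCS6 binds the receptor kinase KIT and insulin receptor signalling proteins, and SOCS5 has been linked to the EGF receptor and IL-4 signalling. Socs6 (ENSMUSG00000056153, chromosome 18, 88665224 to 88927481, minus strand) stood at 62.5, 57.6, 56.8, 53.9 and 68.3 CPM in WT tumors 2 to 6 and at 72.9, 91.6, 97.4, 78.5 and 82.5 CPM in D69A tumors 1 to 5. All D69A tumors were above all WT tumors, as for 12.0% of all genes tested. The log2 fold change was 0.50 (edgeR adjusted p = 0.00161, SE 0.09), and 95.7% of genes tested had a lower one.

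Socs5 (ENSMUSG00000037104, chromosome 17, 87107679 to 87137839, plus strand) stood at 58.0, 43.2, 49.6, 46.4 and 48.5 CPM in WT tumors 2 to 6 and at 55.9, 60.2, 66.0, 56.6 and 62.1 CPM in D69A tumors 1 to 5. Only WT tumor 2 overlapped with the D69A tumors. The log2 fold change was 0.29 (edgeR adjusted p = 0.0132, SE 0.08). Without the 3 tumors highest in muscle genes it was 0.27 and the call was lost (edgeR adjusted p = 0.0634). Melanocyte markers were also higher in D69A tumors, with 6 of 9 past the threshold, none lower, and a median log2 fold change of 0.44, and the part of this in the increases of Socs5 and Socs6 was not tested.

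Socs4 and Socs7 encode less studied members, SOCS4 linked to the EGF receptor and SOCS7 to insulin signalling. Socs4 (ENSMUSG00000048379, chromosome 14, 47276931 to 47296102, plus strand) lay between 50.1 and 54.4 CPM in WT, and between 53.5 and 58.0 CPM in D69A tumors. Its log2 fold change of 0.10 had a 95% confidence interval of 0.00 to 0.19 and did not pass the threshold (edgeR adjusted p = 0.0891). Socs7 (ENSMUSG00000038485, chromosome 11, 97362551 to 97398542, plus strand) lay between 44.5 and 51.2 CPM in WT, and between 43.6 and 54.8 CPM in D69A tumors. Its log2 fold change was 0.04 with an interval of -0.10 to 0.19 (edgeR adjusted p = 0.608), and it turned to -0.00104 with library size alone as scaling.

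**Figure D2:**
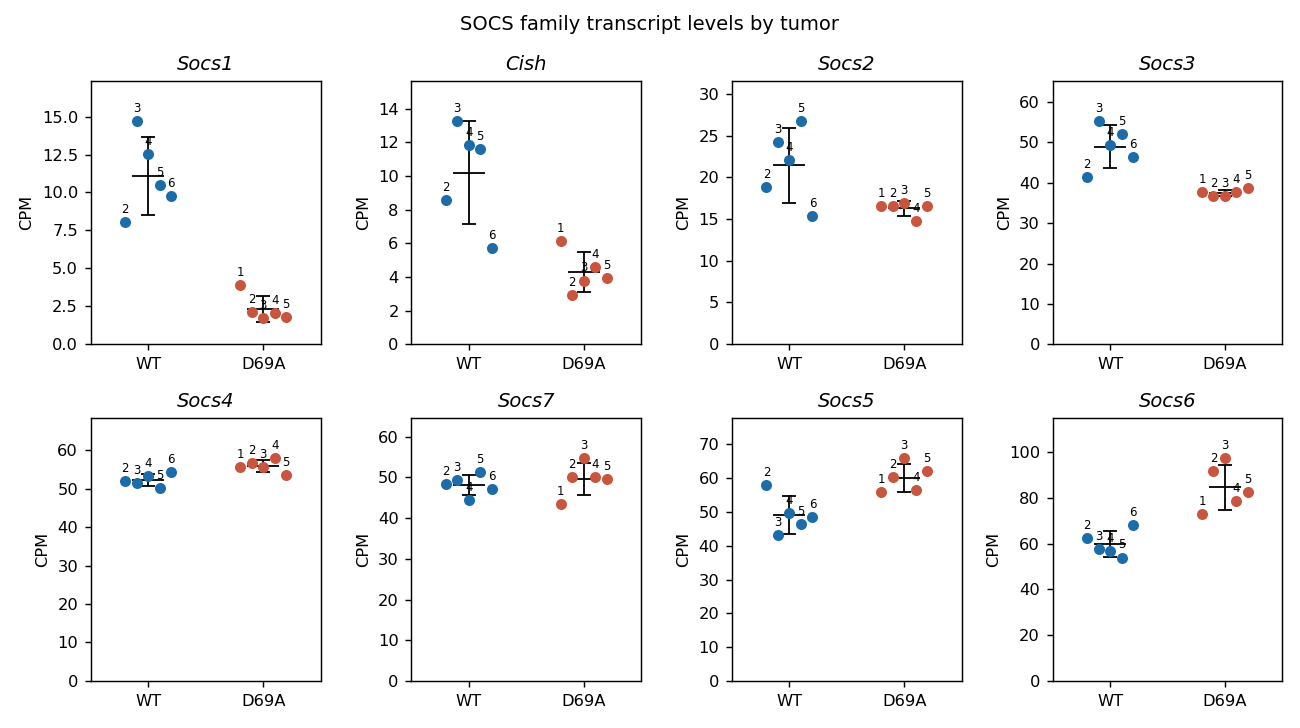
CPM of each SOCS gene (vertical axes, each from 0) in the 5 WT and 5 D69A tumors, 1 point per tumor with its number, and the group mean with its SD in black. The groups do not overlap for Socs1, Socs3 and Socs6. Over all genes tested, 17.4% had all WT tumors above and 12.0% all D69A tumors above. D69A tumor 1 is the highest D69A tumor for Socs1 and Cish.

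Levels were set against each other per kb of exon of the coding transcripts, since gene lengths differ. In WT tumors Socs3 was the highest at 19.2 ± 2.09 CPM per kb and Cish the lowest at 2.79 ± 0.834 CPM per kb (SD, n = 5 each). Between them came Socs5 (10.6), Socs6 (9.74), Socs2 (7.95), Socs4 (7.59), Socs7 (6.86) and Socs1 (3.82). In this order Socs5 and Socs6 overlapped in range, as did Socs6 and Socs2, Socs2 and Socs4, Socs4 and Socs7, and Socs1 and Cish. Socs3 (16.2 to 21.7) lay above Socs5 (9.29 to 12.5) in every WT tumor.

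In D69A tumors the order was Socs3 (14.7 CPM per kb), Socs6 (13.8), Socs5 (12.9), Socs4 (8.12), Socs7 (7.07), Socs2 (6.03), Cish (1.17) and Socs1 (0.798). Socs3 and Socs6 overlapped there (14.4 to 15.2 against 11.9 to 15.9), which they did not in WT tumors. The neighbours Socs6 and Socs5, Socs4 and Socs7, and Socs7 and Socs2 overlapped too, and Socs5 lay above Socs4 in every D69A tumor. Socs1 and Cish also overlapped with each other but with no other gene. With the exons of all annotated transcripts as length, Socs3 stayed first in both groups, whereas Socs2 came to 2.25 in place of 7.95 CPM per kb in WT tumors (rank 7 in place of 4) and to 1.71 in place of 6.03 in D69A tumors (rank 6 as before). Socs6 ranked 5 in place of 3 in WT and 4 in place of 2 in D69A tumors, and Cish and Socs1 changed places in D69A tumors. Of all counts of the family, Socs1 took 3.68 ± 0.797% in WT and 0.756 ± 0.325% in D69A tumors, and Socs6 took 19.9 ± 2.14% and 27.2 ± 1.87% (SD, n = 5 each).

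**Figure D3:**
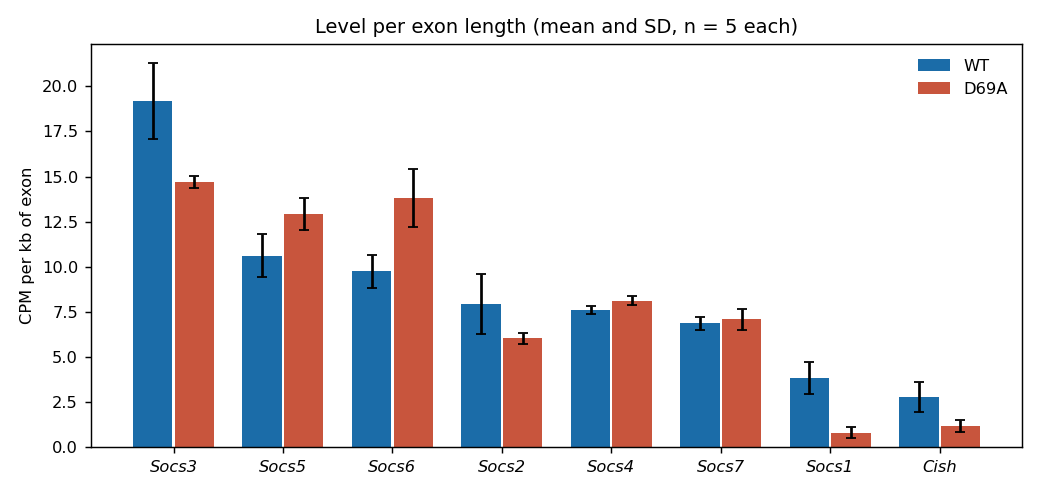
Mean level of each SOCS gene in CPM per kb of exon of its coding transcripts (vertical axis, from 0) in WT and D69A tumors, with the SD over 5 tumors as bars. Socs3 is the highest in both groups, and Socs1 and Cish are the lowest.

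Since leukocyte genes fell as well, each SOCS gene was set against the mean log2 CPM of the 10 pan-leukocyte genes within each tumor, where library scaling cancels. Socs1 was the only member whose ratio did not pass the threshold. The other 7 genes had a higher ratio to leukocyte genes in D69A tumors, and so did most genes. Of the 13788 genes tested outside the leukocyte list, 86.0% had a higher ratio with an exact permutation p under 0.05, with a median difference of 1.95 on the log2 scale, so the count of 7 is near the background. Here tumors were reassigned to groups in every way (exact permutation, two-sided), p-values were adjusted over the 13 ratios tested, of which 12 are reported, and 0.00794 is the smallest p that 5 against 5 tumors allow.

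For Socs1 the log2 ratio was -2.61, -3.07, -2.55, -3.58 and -2.81 in WT tumors 2 to 6 and -3.17, -3.27, -3.24, -3.11 and -3.32 in D69A tumors 1 to 5. The D69A tumors lay within the WT range. Of all those genes, 4.47% had a lower difference than Socs1. The difference of -0.30 had a 95% interval of -0.69 to 0.18, from inverting the exact permutation test, and did not pass (exact permutation p = 0.151, adjusted p = 0.163). It passed without WT tumor 5, the tumor with the lowest ratio (difference -0.46, adjusted p = 0.0172, exact permutation test), and came to 0.01 with a pseudocount of 1 CPM in place of 0.1 CPM.

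For Cish the ratio was higher in D69A tumors by 0.73 (interval 0.09 to 1.34, adjusted p = 0.0413 in the exact permutation test), with overlapping groups. This call was lost in 7 of the 10 tests that left out 1 tumor (D69A tumor 1, 3, 4 or 5, or WT tumor 3, 5 or 6), with adjusted p up to 0.075. The ratio was higher by 1.58 for Socs2 and by 1.57 for Socs3, and by 1.99 to 2.44 for Socs7, Socs4, Socs5 and Socs6, the last being the highest. None of these 6 genes overlapped between groups, as for 79.6% of those genes (all D69A tumors above), and each had an exact permutation p of 0.00794 (adjusted p = 0.0129).

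**Figure D4:**
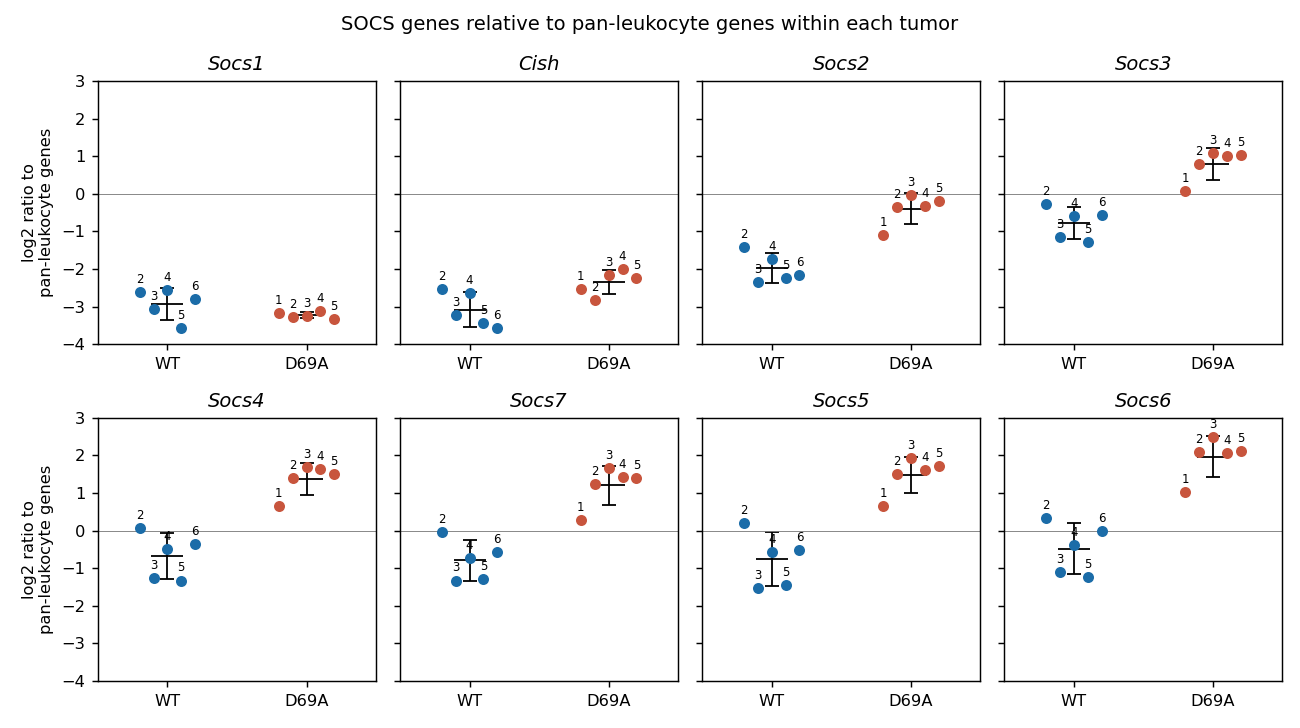
Log2 ratio of each SOCS gene to the mean of 10 pan-leukocyte genes (vertical axis) in each WT and D69A tumor, 1 point per tumor with its number, and the group mean with its SD in black. For Socs1 the D69A tumors lie within the WT range, and for Socs2 to Socs7 all D69A tumors lie above all WT tumors.

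The same test was used to set Socs3, Cish and Socs2 against a STAT that is known to induce each, and Socs1 against Socs3. The ratio of Socs3 to Stat3 did not pass (difference -0.14, interval -0.39 to 0.11, exact permutation p = 0.23). Cish fell relative to Stat5a by 1.15 on the log2 scale (interval -1.70 to -0.57, exact permutation p = 0.0159, adjusted p = 0.0229), while Stat5a itself averaged 36.0 ± 3.61 CPM across WT tumors against 34.3 ± 0.912 CPM across D69A tumors (mean ± SD of 5). The ratio of Socs2 to Stat5b differed by -0.37 (adjusted p = 0.0469, exact permutation test). That call was lost in 8 of the 10 tests without 1 tumor (D69A tumor 1, 3, 4 or 5, or WT tumor 2, 3, 4 or 5), with adjusted p up to 0.0722. Between the pair of kinase-inhibiting members, the log2 ratio of Socs1 to Socs3 went from -2.15 ± 0.20 in WT to -4.02 ± 0.45 in D69A tumors (mean ± SD of 5 tumors; exact permutation p = 0.00794, adjusted p = 0.0129).

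Within groups, the 4 genes that fell correlated positively with each other and negatively with Socs5 and Socs6. Deviations of log2 CPM from the group mean over the 10 tumors, described without a test, had a Pearson r between Socs1 and Cish of 0.68, between Cish and Socs2 of 0.67 and between Socs2 and Socs3 of 0.66. It was 0.55 between Cish and Socs3, 0.51 between Socs1 and Socs3 and 0.31 between Socs1 and Socs2. Between these 4 genes and Socs6 it ran from -0.85 with Cish to -0.47 with Socs3, and with Socs5 from -0.82 with Socs3 to -0.32 with Socs2. For Socs4 it ran from -0.73 with Socs2 to 0.02 with Socs1, and for Socs7 from -0.66 with Socs1 to 0.25 with Socs2. Negative values were thus not confined to Socs5 and Socs6. With the mean of the pan-leukocyte genes the r was 0.80 for Socs1, 0.76 for Socs3, 0.64 for Cish and 0.62 for Socs2, against -0.83 for Socs5 and -0.65 for Socs6. With fibroblast markers it was 0.69, 0.68, 0.66 and 0.53 for the same 4 genes, -0.67 for Socs5 and -0.65 for Socs6. With melanocyte markers the signs were turned, at 0.82 for Socs5, 0.69 for Socs6, -0.72 for Socs3, -0.61 for Socs1, -0.50 for Cish and -0.48 for Socs2. With skeletal muscle markers r was 0.80 for Cish, 0.76 for Socs1, 0.34 for Socs2 and 0.27 for Socs3, against -0.69 for Socs6 and -0.42 for Socs5. Socs4 had r of -0.37 with leukocyte, -0.54 with fibroblast, 0.34 with melanocyte and 0.11 with muscle markers. Those of Socs7 were -0.22, -0.22, 0.20 and -0.56 in the same order. These points share libraries and cell content, so the relations are not independent of each other. Socs3 deviated by only -0.029 to 0.047 in D69A tumors, against -0.233 to 0.182 in WT tumors, so its r rest mostly on the WT tumors.

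Among 12219 other genes with a mean of at least 1 CPM, those most like Socs1 by this r over the 10 tumors were Ifi35 (0.975), Trim26 (0.966) and Lipg (0.964). Those most like Socs3 were Rufy3 (0.969), Sowahc (0.967) and Mxd1 (0.961), and those most like Cish were Adad2 (0.954), Rfx1 (0.952) and Plekhj1 (0.949). The r for Socs3 again rest mostly on the WT tumors. Being the highest of 12219 values over 10 tumors, such r are raised by the selection itself, by an amount that was not tested. All 9 genes were lower in D69A tumors past the threshold, as were 24.7% of all genes tested, from a log2 fold change of -0.22 for Rfx1 to -2.89 for Lipg. They were picked to follow SOCS genes that varied with the pan-leukocyte genes, which fell too, and the part of leukocyte content was not tested.

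Upstream of the family, cytokine and receptor genes were mostly lower in D69A tumors. The counts of this list and those that follow stand against 24.7% lower and 18.8% higher over all genes tested. Of 20 ligands on the list 11 had enough counts to be tested, and 9 of these fell, with a median log2 fold change of -1.61. Ifng, the interferon-gamma gene, averaged 2.08 ± 0.853 CPM across WT tumors against 0.374 ± 0.242 CPM across D69A tumors (mean ± SD of 5). Il12b, which encodes a subunit of IL-12, fell by 3.36 on the log2 scale, Il15, which sustains NK cells, fell by 2.68 and Osm, the oncostatin M gene, fell by 1.42. Il4 and Tslp did not pass. The filter on low counts leaves out genes that are low in both groups but keeps a gene with enough counts in 1 group alone. Ligands near the floor in D69A tumors could thus enter through the WT tumors, which favors decreases among them. With at least 50 counts in 5 tumors as the filter, 4 ligands in place of 9 were lower.

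Of 28 tested receptor genes 20 fell and 4 rose, with a median of -1.78. The IL-2 receptor genes Il2ra and Il2rb had log2 fold changes of -2.97 and -2.73, and Il10ra one of -2.66. The other chain of the IL-10 receptor, Il10rb, which IL-22 and interferon-lambda receptors share, was 1.53-fold higher. The other increases were those of Igf1r, Insr and Ifnar1. Il6st, which encodes gp130, averaged 137.5 ± 11.0 CPM across WT tumors against 128.2 ± 8.05 CPM across D69A tumors (mean ± SD of 5) and did not pass.

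Of 10 JAK and STAT genes 5 fell and none rose, with a median of -0.46. They were Stat2, which acts downstream of type I interferon, Stat4, which acts downstream of IL-12, and Jak2, Tyk2 and Jak3. Their log2 fold changes were -1.97, -2.59, -0.80, -0.69 and -0.60. Jak1, Stat3, Stat5a, Stat5b and Stat6 did not pass. In the test against a fold of 1.5, 2 genes of this list in place of 5 were lower.

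Other inhibitors of the pathway were mixed, with 7 of 14 lower, 1 higher and a median of -0.25. In the test against a fold of 1.5, 4 were lower and 0 higher. Usp18, an interferon-induced inhibitor of the type I interferon receptor, was 4.96-fold lower. Ptprc and Ptpn6, leukocyte phosphatases better known as CD45 and SHP-1, were 4.69-fold and 2.16-fold lower, and the repressor gene Bcl6 was 2.65-fold lower. Pias2, which encodes a SUMO ligase, was 1.29-fold higher, and the count of 1 higher became 3 without D69A tumor 1 or WT tumor 5 and 2 without WT tumor 3 or 6. Of 16 other STAT target genes 10 fell and Hif1a rose (2 rose without WT tumor 2), with a median of -0.75. Irf1 and Nlrc5, both induced by interferon-gamma, were 3.31-fold and 3.94-fold lower, the PD-L1 gene Cd274 was 3.1-fold lower and Bcl3 was 4.03-fold lower. These lists hold genes that leukocytes express, and leukocyte genes fell with them, and the part of leukocyte content in each list was not tested.

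Of the ligase machinery that the SOCS box recruits, 9 genes were tested, of which 1 was lower, 2 were higher and the median was 0.04. Over all genes tested, 24.7% were lower and 18.8% higher. Cul5, the cullin of this ligase, was 1.23-fold and its RING partner Rnf7 1.2-fold higher, and Ube2f, the conjugating enzyme that neddylates cullin-5, was 1.15-fold lower. Cul2 did not pass (log2 fold change 0.14). For Rnf7, 7 of 10 fits with 1 tumor left out lost the call (any of D69A tumors 2 to 5 or WT tumors 2, 3 and 6), where the edgeR adjusted p reached 0.0922. Elob and Eloc, the elongin B and C genes, stood at 132.7 and 80.1 CPM in WT and at 126.1 and 82.5 CPM in D69A tumors, and neither passed.

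Of 18 tested genes of other SOCS box proteins 5 fell and 4 rose, with a median of -0.04. These counts are near the background of 24.7% lower and 18.8% higher over all genes tested. In the test against a fold of 1.5, 2 were lower and 0 higher. Wsb2 was 1.29-fold higher, Asb2 3.36-fold, Asb13 1.36-fold and Asb15 3.57-fold lower. Asb15 had only 5 to 67 counts per tumor, with a D69A mean of 0.32 CPM. Like the ligands, it could enter the test through the WT tumors, which favors a decrease. Without the 3 tumors highest in muscle genes, 2 in place of 5 were lower, and Asb15 was among those that lost the call (edgeR adjusted p = 0.0645).

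**Figure D5:**
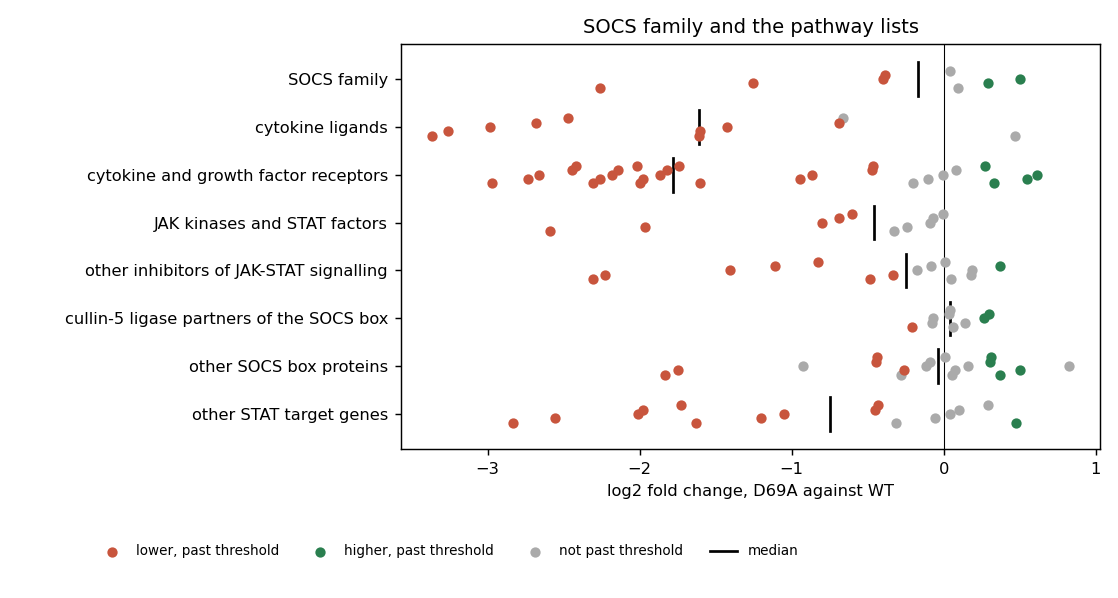
Log2 fold change, D69A against WT tumors (horizontal axis), of each tested gene of the SOCS family and of 7 pathway lists (rows), colored by call, with the median of each list as a black bar. Medians lie between -1.78 for receptors and 0.04 for cullin-5 ligase partners, and that of the SOCS family is -0.17.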

How the data were processed

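The authors deposited 1 table of read counts per Ensembl gene, whole numbers not scaled between the 10 tumors, and per the submitters' processing notes fastp, HISAT, Bowtie, RSEM and the build mm10 were used. What each tool did, its version, the annotation and any use of strand: not given in the sources used here. Because RSEM estimates counts, the deposited counts may be rounded estimates. Columns were assigned by name. Of the tests run, 1 ratio is not reported here. Symbols, coordinates and exon lengths came from GENCODE mouse release 21 (17670 identifiers matched, 67 did not), promoter windows from RefSeq (GRCm38.p6).

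Genes passing edgeR's filterByExpr by group were scaled by TMM and compared with edgeR's quasi-likelihood test (edgeR 4.0.16, R 4.3.3, Benjamini-Hochberg adjustment covering all 13798 genes, threshold 0.05). SEs were derived from the F statistic. Log2 ratios used CPM plus 0.1 and a two-sided exact permutation test. In simulated counts for these 13798 genes, 200 of them were changed. There the test recovered 14% of 1.25-fold, 46% of 1.5-fold, 80% of 2-fold and 86% of 4-fold changes, and 4.24% of its calls were unchanged genes. Far fewer genes were changed there than the 43.5% that passed in the data, and the adjusted p depends on that share. The recovery rates therefore do not carry over to this comparison. No sample looked like 1 library deposited again (smallest chi-square per degree of freedom within a group 13.9). This does not show separate tumors or mice, and each sample was counted as 1 replicate on its label.

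The members and all lists were chosen with earlier results of these data known. Genes named are the 8 members, up to 4 genes per pathway list with the smallest p, and the 3 genes most like each of Socs1, Socs3 and Cish. Igf1r, Insr, Ifnar1, Il6st, Il4, Tslp, Jak1, Jak3, Stat3, Stat5a, Stat5b, Stat6, Pias2, Hif1a, Elob and Eloc were named beyond this rule after their values were seen. Alternatives were DESeq2 1.42.0, limma-voom (limma 3.58.1), other scalings, filters and thresholds, a test against a 1.5-fold change, another pseudocount, Ptprc as sole leukocyte reference, a replicate block, and fits without 1 tumor. Leaving out the 3 tumors highest in muscle genes was added after seeing the data.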

Additional observations from a re-analysis of the deposited data

Results flagged for a closer look

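Values of a group of 5 tumors were singled out where 1 tumor's gap to its nearest neighbor was large against the group's range. Of 42 groups of values examined, 5 (11.9%) met this, all of them D69A groups, and chance gives about 1 in 20 for independent values. Socs1 in D69A tumor 1 was 3.88 CPM, against 1.74 to 2.12 CPM in the other D69A tumors. In the same tumor the log2 ratio of Socs1 to Socs3 was -3.25 (others -4.36 to -4.06), that of Socs4 to pan-leukocyte genes 0.643 (others 1.40 to 1.68) and that of Socs6 to pan-leukocyte genes 1.03 (others 2.07 to 2.49). Pan-leukocyte and skeletal muscle markers were also highest of the D69A group in tumor 1, and their part in these values was not tested. Socs2 in D69A tumor 4 was 14.8 CPM, against 16.5 to 16.9 CPM in the others.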

How the results depend on the processing

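Socs1 and Cish kept direction and call in all 20 alternative fits, with log2 fold changes of -2.54 to -2.13 and -1.57 to -1.13. Against a fold of 1.5, 2 SOCS genes were lower (Socs1 and Cish) and 0 higher, and 1800 of all genes were lower and 60 higher. At an adjusted p of 0.01, 1 SOCS gene was higher and 1334 of all genes. Without the 3 tumors highest in muscle genes 1 SOCS gene was higher and 1727 of all genes. Socs7 turned to -0.00104 with library size only. With 1 tumor left out, 3 to 4 SOCS genes were lower and 2 higher, 2826 to 3631 of all genes were lower and 2095 to 2936 higher. Upper quartile scaling gave 63.5% and library size only 66.4% lower among calls, against 56.8%.

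The replicate numbers, shared by 4 tumors of each group, are not stated to pair tumors. Deviations of same-numbered tumors had r of 0.182, -0.425, 0.204 and 0.169 for numbers 2 to 5, and 1 of the 4 WT tumors correlated best with its own number. So few values cannot decide whether the numbers pair tumors. With the replicate block 1 SOCS gene was higher, as Socs5 gave an adjusted p of 0.0516 (edgeR). Blocked ratio differences over 4 number pairs, where 0.125 is the smallest exact p, were 1.71 (Socs2), 1.8 (Socs3), 2.31 (Socs4), 2.51 (Socs5), 2.79 (Socs6), 2.28 (Socs7) and 0.65 (Cish) to leukocyte genes, -1.46 (Cish to Stat5a), -0.5 (Socs2 to Stat5b) and -2.09 (Socs1 to Socs3), all past the threshold only without the block.

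With a pseudocount of 1 CPM the ratio of Socs1 to leukocyte genes turned to 0.01 and that of Socs2 to Stat5b came to -0.35 (adjusted p = 0.0516, exact permutation). Without the 3 tumors highest in muscle genes, Cish to leukocyte genes was 0.88 (0.73 with all tumors) and Socs2 to Stat5b -0.3, neither past the threshold. Leaving out tumors raises the smallest p that the exact permutation test allows, to 0.0159 with 1 tumor left out. It is higher still without these 3 tumors, so a lost call alone does not show a smaller difference. With 1 tumor left out, Cish to leukocyte genes ranged from 0.61 to 0.87, Socs2 to Stat5b from -0.48 to -0.32 and Socs1 to leukocyte genes from -0.46 to -0.2. The cause of these shifts was not tested. Depth limits Socs1 and Cish most, with 58 to 538 and 105 to 485 counts per tumor.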
